A study of Mus musculus with 8 samples.

Results

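The semaphorins, plexins and neuropilins were followed in cell lines of mouse small cell lung cancer (SCLC), a lung tumor of neuroendocrine character. Each culture was profiled with forced Nfib, which encodes a DNA-binding protein of the nuclear factor I group, and with an empty vector. Members were all protein-coding genes whose symbols begin with Sema or Plxn, the Plxdc genes left out, together with Nrp1 and Nrp2. This gave 31 of the 22691 genes in the deposited count table, namely 20 semaphorins, 9 plexins and 2 neuropilins. RNA-seq had been done on 4 libraries of cells overexpressing mouse Nfib and on 4 libraries of cells with an empty vector, joined in 4 pairs by culture. Pair 1 was the line Lmyc1 marked old, pair 2 was Lmyc3 marked old, pair 3 was Lmyc3 marked new and pair 4 was Lmyc5 marked new, and no source used here explains old and new. Every library came from primary lung tumor-derived cells on a mixed FVB/n and 129/Ola background whose labelled alleles, shared by both arms, include the invCAG-Mycl-Luc transgene and Rb1-/-. Pairs 2 and 3 stem from 1 line. Nothing says that an arm of a culture was grown more than once, and p-values therefore cover only the spread among these libraries and pairs. Spread between repeats of 1 culture was not measured, and a difference within 1 pair may be technical.

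Semaphorins are secreted or membrane-bound guidance cues, and plexins are their receptors. Plexins carry an intracellular domain that switches off Ras-family GTPases and so loosens adhesion and the cytoskeleton. Secreted semaphorins of class 3 mostly bind a neuropilin that is held in a complex with an A-type plexin, whereas Sema3e binds plexin D1 without needing a neuropilin, and semaphorins of class 4 bind mainly B-type plexins. The family steers axons and growing vessels, and tumor cells of neural and neuroendocrine character commonly express parts of it.

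The forced gene was raised in every pair. Nfib stood at 1281, 4672, 2929 and 3583 CPM (counts-per-million) in the Nfib libraries of pairs 1 to 4, against 71.9, 399.4, 162.8 and 486.5 CPM in the empty vector libraries, a log2 fold change of 3.68 ± 0.21 (SE, DESeq2 with the pair as a block, adjusted p of 1.76e-64). Libraries held between 21815264 and 29934021 counts, and between 28 and 31 members had at least 1 count in a library. The filter on low counts kept 13380 genes, among them 27 members (17 semaphorins, 8 plexins and both neuropilins), and left Plxnb3, Sema3b, Sema4a and Sema7a untested. These 4 genes reached at most 2.54 CPM in any library (Sema7a, empty vector, pair 1).

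The libraries expressed the markers of the labelled cell type. All 9 listed neuroendocrine markers were expressed, and their CPM summed to between 2160 and 4577 in Nfib libraries and between 3054 and 4937 in empty vector libraries. Of these 1 fell, the lung lineage factor Nkx2-1 (log2 fold change of -0.39 ± 0.11, SE, paired DESeq2 adjusted p of 0.0122), and its part in the results was not tested. Of 7 endothelial markers with a row, Cdh5, Tie1 and Emcn were at or near 0 in all libraries and Pecam1 stayed at or below 0.425 CPM, while Vwf ranged from 38.65 to 568 CPM in Nfib libraries and from 49.85 to 649.1 CPM in empty vector libraries and Kdr reached 6.47 CPM in an Nfib library. The leukocyte marker Ptprc and the fibroblast markers Col1a1 and Col1a2 were also at or near 0. Other members of these lists were not. The fibroblast marker Pdgfra reached 12.1 CPM in an Nfib library and 10.3 CPM in an empty vector library. Cd68 of the leukocyte list reached 2.26 and 2.30 CPM. Coro1a, an actin regulator on the leukocyte list that other cells express too, fell (log2 fold change of -0.47 ± 0.14, SE, paired DESeq2 adjusted p of 0.0302), and its part was not tested. The leukocyte list summed to between 19.7 and 46.1 CPM in Nfib libraries and between 29.7 and 58.1 CPM in empty vector libraries. On the neuron and glia list, Mbp ranged from 90.9 to 237.3 CPM in Nfib libraries and from 91.5 to 224.7 CPM in empty vector libraries. Tubb3 ranged from 31.8 to 107.8 CPM and from 29.9 to 159.2 CPM. The alveolar and airway list summed to between 3.74 and 12.1 CPM in Nfib libraries and between 2.48 and 12.9 CPM in empty vector libraries. Its highest level was 10.3 CPM, for Sftpc in the empty vector library of pair 2. None of the tested markers of fibroblasts (1), alveolar and airway cells (3) or neurons and glia (4) passed, where 4.06% of all tested genes did. These lists are too short to be set against that share.

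Receptor transcripts outweighed ligand transcripts in every library. Levels of different genes were compared as CPM per kilobase of exon. On this scale the plexins summed to 156.3, 66.4, 120.4 and 116.8 in the Nfib libraries of pairs 1 to 4, against 148.7, 75.2, 122.5 and 118.6 in the empty vector libraries. The semaphorins summed to 51.3, 32.5, 37.5 and 55.5 in the Nfib libraries and to 51.3, 37.3, 40.1 and 58.4 in the empty vector libraries. The plexin sum was thus between 2.05 and 3.21 times the semaphorin sum in Nfib libraries and between 2.02 and 3.05 times in empty vector libraries. With coding length in place of exon length the ratio was between 1.15 and 2.19 in Nfib libraries and between 1.18 and 1.96 in empty vector libraries, above 1 in all 8.

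**Figure D1:**
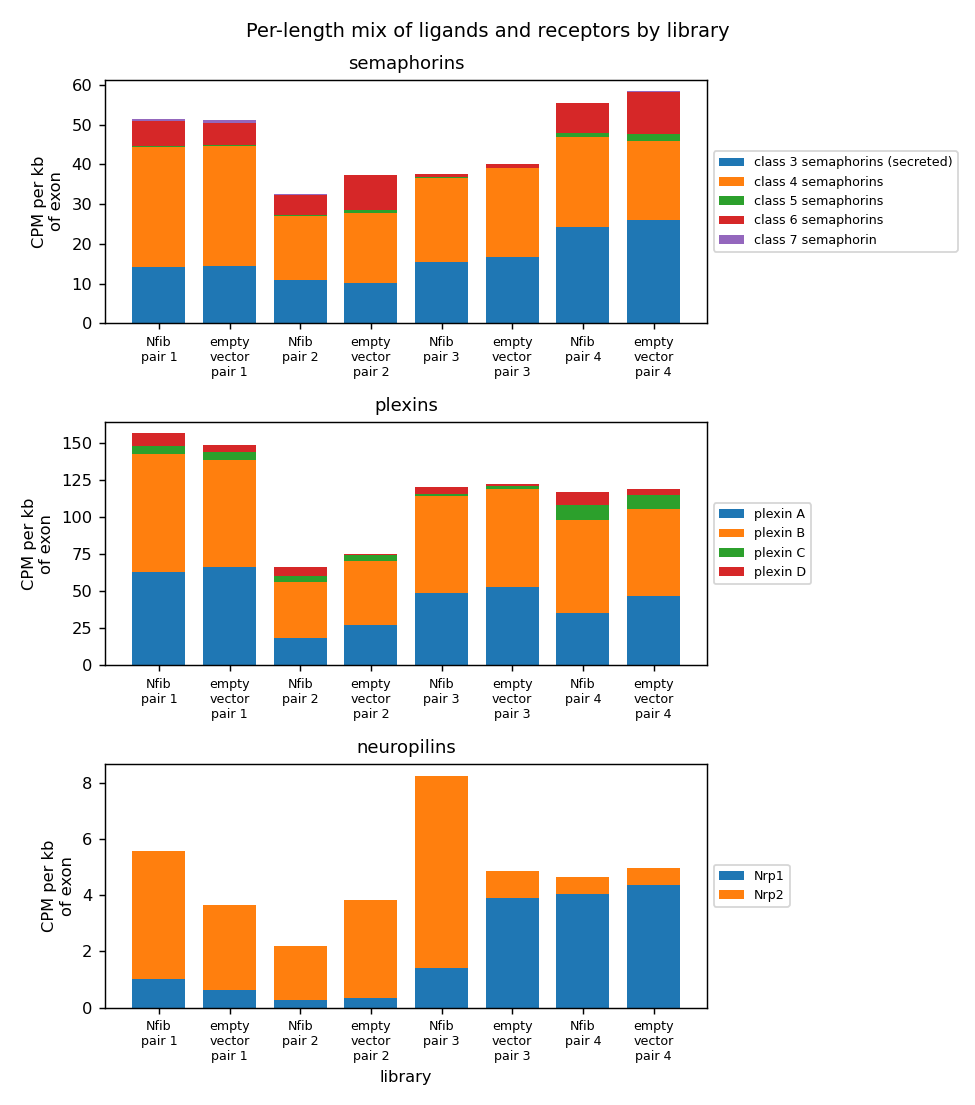
Stacked bars of CPM per kilobase of exon, by library and pair, for semaphorin classes (top), plexin types (middle) and the neuropilins (bottom), with the Nfib library of a pair left of its empty vector library. Plexins stand above semaphorins in all 8 libraries, class 6 semaphorins are nearly missing from pair 3, and the neuropilin mix of pair 3 differs between its arms.

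Plxnb2, the plexin that binds Sema4c, was the leading plexin in all 8 libraries on the exon scale. It made up 36.7%, 44.3%, 38.4% and 40.0% of plexin transcripts in the Nfib libraries of pairs 1 to 4, against 36.1%, 44.7%, 38.3% and 35.8% in the empty vector libraries. The other receptors abundant in all libraries were Plxnb1, the receptor of Sema4d, and Plxna1 and Plxna2, of the A-type plexins that partner with neuropilins. Among the 9 plexins, Plxna4 ranked from 2 to 8 by library and Plxna3 from 5 to 8. Plxnb3, a receptor of Sema5a, was the lowest plexin in every library, at 0.345 to 0.689 CPM in Nfib libraries and 0.142 to 0.721 CPM in empty vector libraries. A-type plexins gave a mean of 37.8% of plexin transcripts over the 8 libraries by exon length and 48.3% by coding length, so their rank relative to B-type plexins depended on the length used.

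Among the ligands, the membrane-bound class 4 and the secreted class 3 made up most of the transcripts. Class 3 gave 27.4%, 33.2%, 41.5% and 43.8% of semaphorin transcripts in the Nfib libraries of pairs 1 to 4, and 28.0%, 27.3%, 41.8% and 44.7% in the empty vector libraries. Class 4 gave 59.3%, 50.2%, 56.1% and 40.5% in the Nfib libraries, and 59.2%, 47.3%, 55.6% and 33.9% in the empty vector libraries. The leading ligand depended on the culture. Sema4d led in both libraries of pairs 1 and 3 and in the empty vector library of pair 2, Sema4c led in the Nfib library of pair 2, and Sema3e led in both libraries of pair 4. With coding length the leading semaphorin was the same in 5 of the 8 libraries, the leading plexin in 7 and the leading neuropilin in 8.

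**Figure D2:**
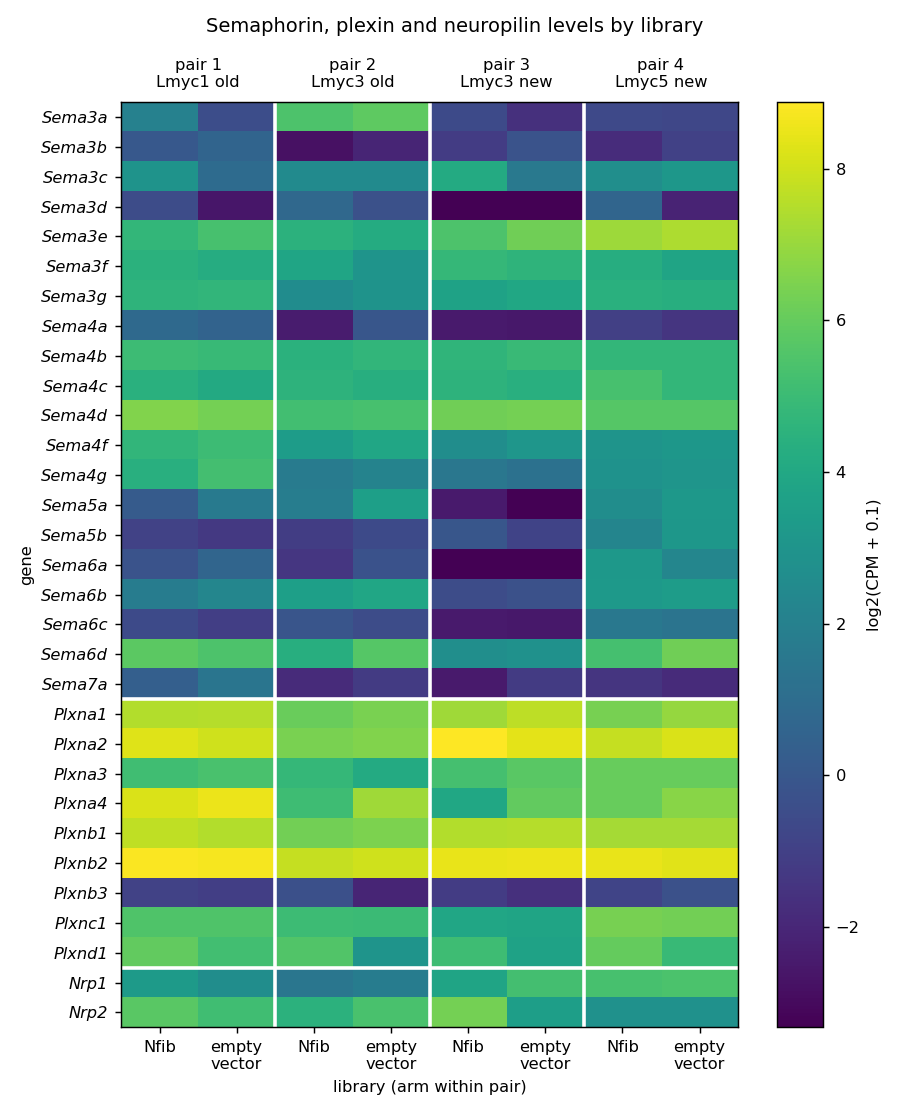
Heat map of the 31 genes (rows, grouped as semaphorins, plexins and neuropilins) in the 8 libraries (columns, Nfib left of empty vector in each pair), coloured by log2(CPM + 0.1). Plxnb2 and Plxna2 are bright in most libraries, Sema3a is bright in pair 2 alone, and Sema3d and Sema6a are at 0 in pair 3.

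The comparison of Nfib with empty vector cells asked which ligands and receptors move when Nfib is forced. Of the 27 tested genes, 2 passed the DESeq2 test with the pair as a block (adjusted p under 0.05), both of them plexins. Plxnd1 rose and Plxna1 fell. In bulk RNA, more cells with a transcript and more of it per cell cannot be told apart. None of the 17 semaphorins and neither neuropilin passed. Over all 13380 tested genes 4.06% passed, with 249 (1.86%) higher and 294 (2.2%) lower, or 324 higher and 201 lower when libraries were scaled by total counts. The median log2 fold change was -0.005 over the 27 genes and -0.006 over all genes. The edgeR quasi-likelihood test called 0 members and 0.0% of all genes, both without the block (1 member and 83 genes had an unadjusted p under 0.05) and with it (8 members and 2012 genes). The forced gene Nfib was thus not called in edgeR either, so failing this test cannot show that a member did not change.

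**Figure D3:**
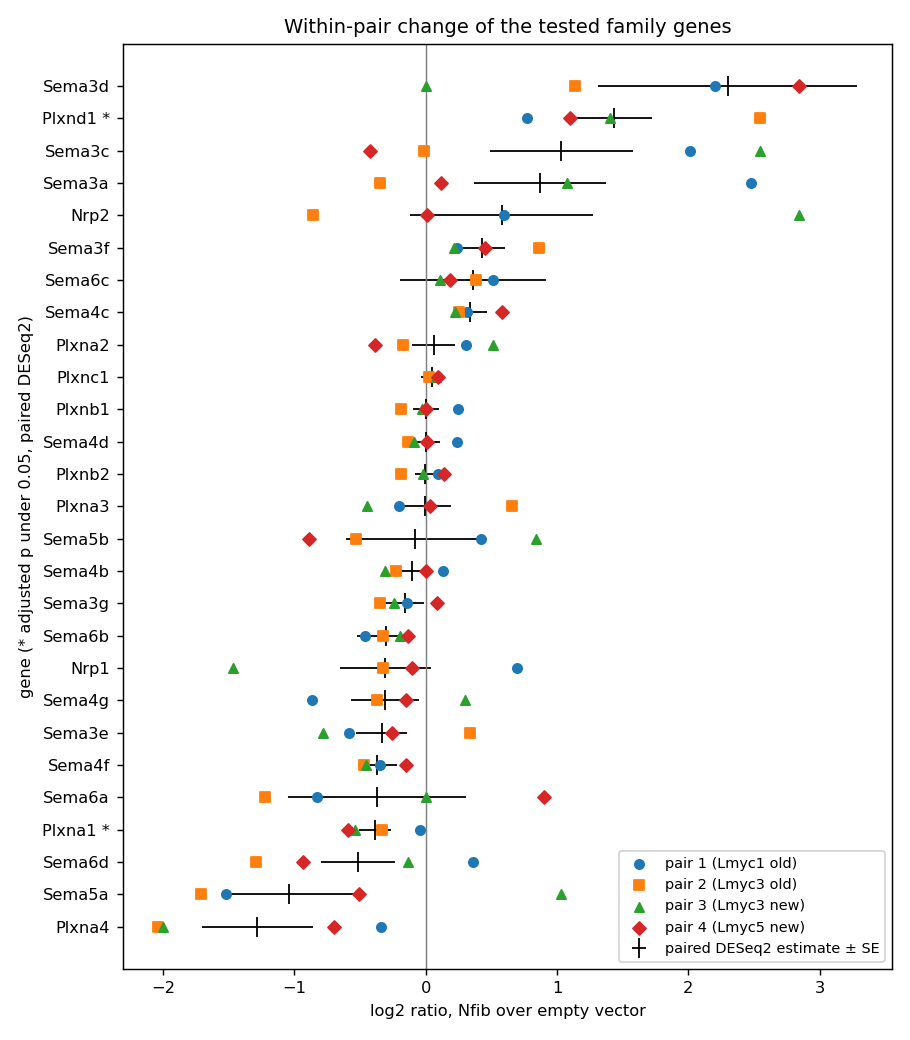
Within-pair log2 ratio of Nfib over empty vector for each tested gene (coloured points, 1 per pair) with the paired DESeq2 estimate (tick) and its SE (line), ordered by estimate; an asterisk marks an adjusted p under 0.05. Plxnd1 lies right of 0 in all 4 pairs and Plxna4 left of 0 in all 4, while Nrp2 and Sema3c spread over both sides. Sema5a lies right of 0 only in pair 3, where it had 2 counts with Nfib and 0 with empty vector.

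Plxnd1, the receptor of Sema3e, lies at chr6:115954811-115995005 (minus strand, GRCm38). It stood at 61.9, 46.5, 34.4 and 63.8 CPM in the Nfib libraries of pairs 1 to 4, against 36.3, 7.88, 12.9 and 29.7 CPM in the empty vector libraries. It was higher with Nfib in every pair, and the arms overlapped only in that the Nfib library of pair 3 lay below the empty vector library of pair 1. The log2 fold change was 1.44 ± 0.29 (SE, paired DESeq2 adjusted p of 9.3e-05), and the within-pair log2 ratios were 0.77, 2.55, 1.41 and 1.10. In the paired edgeR test its unadjusted p was 0.00312 and its adjusted p 0.174. The gene passed the DESeq2 test without any single pair, with estimates between 1.08 and 1.67. Per length, plexin D made up 5.42%, 9.60%, 3.91% and 7.48% of plexin transcripts in the Nfib libraries, against 3.35%, 1.44%, 1.45% and 3.43% in the empty vector libraries. Plxnd1 is a plexin of endothelial cells in vessels. Of the 7 endothelial markers with a row, Cdh5, Tie1 and Emcn were at or near 0, Pecam1 and Tek reached at most 0.312 and 0.584 CPM in Nfib libraries and 0.425 and 1.37 CPM in empty vector libraries, and Vwf was abundant in both arms. Kdr was at 5.74 and 6.47 CPM in the Nfib libraries of pairs 2 and 3, against 0.0944 and 0.0371 CPM in their empty vector libraries. The list summed to between 44.8 and 574.9 CPM in Nfib libraries and between 51.7 and 649.3 CPM in empty vector libraries, and its part in the Plxnd1 result was not tested.

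Its ligand Sema3e did not pass the test. Sema3e stood at 26.6, 23.0, 44.2 and 137.2 CPM in the Nfib libraries, against 39.9, 18.1, 76.0 and 163.7 CPM in the empty vector libraries. It was lower with Nfib in pairs 1, 3 and 4 and higher in pair 2, with a log2 fold change of -0.34 ± 0.20 (SE, paired DESeq2 adjusted p of 0.467). Leaving out pair 2 gave -0.54 (adjusted p of 0.00984), and adding up the counts of both Lmyc3 cultures in each arm gave -0.47 (adjusted p of 0.00576), and in both of these fits it passed. Without pairs 1, 3 and 4 the estimates were -0.25, -0.18 and -0.36 (paired DESeq2 adjusted p of 0.901, 0.999 and 0.88).

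Nuclear factor I proteins recognise the palindrome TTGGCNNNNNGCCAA and bind more weakly to its TTGGC element alone. Both were searched on either strand in RefSeq promoters of GRCm38.p6, which run from 250 bases before to 50 bases after an annotated start. Promoters were found for 26 members (37 promoters), and none was listed for Plxna1, Plxna4, Sema3b, Sema3f and Sema6a. The palindrome occurred in 0 of the 37 member promoters and in 0.0366% of all 32817 promoters. The element TTGGC occurred in 10 member promoters (27.0%) of 9 members, against 46.7% of all promoters. The member promoters held a median of 15 CpG, against 7 over all promoters. The promoters of the receptor that rose, of its ligand, and of Plxnc1, the member with the most even within-pair ratios, are printed 5′ to 3′ in the direction of the gene, with matches to TTGGC or its reverse complement in capitals.
Plxnd1 (chr6:115994956-115995255, minus strand): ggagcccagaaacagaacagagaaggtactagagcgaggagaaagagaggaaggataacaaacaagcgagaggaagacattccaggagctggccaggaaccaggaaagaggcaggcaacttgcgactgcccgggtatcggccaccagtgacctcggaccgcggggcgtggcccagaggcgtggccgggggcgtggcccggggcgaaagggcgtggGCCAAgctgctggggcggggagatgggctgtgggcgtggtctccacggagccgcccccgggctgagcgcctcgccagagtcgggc
Sema3e (chr5:14025026-14025325, plus strand): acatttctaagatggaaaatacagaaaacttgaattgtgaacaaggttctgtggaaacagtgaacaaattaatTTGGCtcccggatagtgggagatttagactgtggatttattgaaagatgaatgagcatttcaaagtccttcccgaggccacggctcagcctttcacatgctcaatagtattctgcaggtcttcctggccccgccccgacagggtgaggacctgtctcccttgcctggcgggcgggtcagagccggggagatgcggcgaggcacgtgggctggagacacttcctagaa
Plxnc1 (chr10:94944796-94945095, minus strand): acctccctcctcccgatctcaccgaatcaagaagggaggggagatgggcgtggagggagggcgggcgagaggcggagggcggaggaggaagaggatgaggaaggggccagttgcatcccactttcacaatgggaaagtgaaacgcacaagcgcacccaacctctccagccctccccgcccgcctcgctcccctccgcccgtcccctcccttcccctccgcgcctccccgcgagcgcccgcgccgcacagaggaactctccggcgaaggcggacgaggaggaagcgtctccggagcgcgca
The Plxnd1 promoter held 1 match, with its leftmost base at -35 from the start, and 23 CpG. The Sema3e promoter held 1 match, at -177, and 11 CpG. The Plxnc1 promoter held 0 matches and 30 CpG. A match of 5 letters describes the sequence only.

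Of the A-type plexins, 1 passed the test. Plxna1, the receptor of Sema6d and a partner of Nrp1, lies at chr6:89316316-89362613. It stood at 176.5, 67.4, 141.2 and 83.0 CPM in the Nfib libraries, against 181.5, 84.8, 205.7 and 125.3 CPM in the empty vector libraries. It was lower with Nfib in every pair, with arms that overlapped, and fell by 0.39 ± 0.12 on the log2 scale (SE, paired DESeq2 adjusted p of 0.038). When pairs were left out in turn it passed in 1 of 4 fits, the one without pair 1, with adjusted p-values between 0.101 and 0.446 in the others, and not with total-count scaling (adjusted p of 0.0775), with the Lmyc3 cultures summed (adjusted p of 0.0925) or in the paired edgeR test (adjusted p of 0.224). Its exons overlap those of Gm26811 on the other strand, which had at most 4 counts in a library where Plxna1 had at least 1468.

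Plxna4, a receptor of Sema6a, Sema6b and, with Nrp1, of Sema3a, had the lowest estimate of the plexins and did not pass the test. It had 290.5, 34.5, 15.5 and 65.2 CPM in the Nfib libraries, against 368.2, 142.5, 62.5 and 106.1 CPM in the empty vector libraries. All 4 pairs were lower with Nfib, with log2 ratios between -2.04 and -0.34, and the smallest difference was that of pair 1, where the gene was most abundant. The log2 fold change was -1.28 ± 0.42 (SE, paired DESeq2 adjusted p of 0.056), and without pair 1 it was -1.60 (adjusted p of 6.41e-06). Without pairs 2, 3 and 4 it was -1.01, -1.02 and -1.48 (adjusted p of 0.381, 0.491 and 0.161 by paired DESeq2), and with the Lmyc3 cultures summed it was -1.01 (adjusted p of 0.355). Its exons overlap an opposite-strand gene that was not analysed here.

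Plxna2, a receptor of Sema6a, and Plxna3, which with Nrp2 receives Sema3f, had log2 ratios of both signs. The tested plexin B genes had estimates near 0. Plxnb1 had a log2 fold change of 0.002 ± 0.10 and Plxnb2 of -0.002 ± 0.08 (SE, paired DESeq2 adjusted p of 0.998 for each). Plxnc1, the receptor of Sema7a, stood at 46.2, 32.6, 14.9 and 83.6 CPM in the Nfib libraries, against 45.4, 32.1, 14.1 and 78.3 CPM in the empty vector libraries. It was higher with Nfib in all 4 pairs by log2 ratios of at most 0.09, with a log2 fold change of 0.05 ± 0.09 (SE, paired DESeq2 adjusted p of 0.917).

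**Figure D4:**
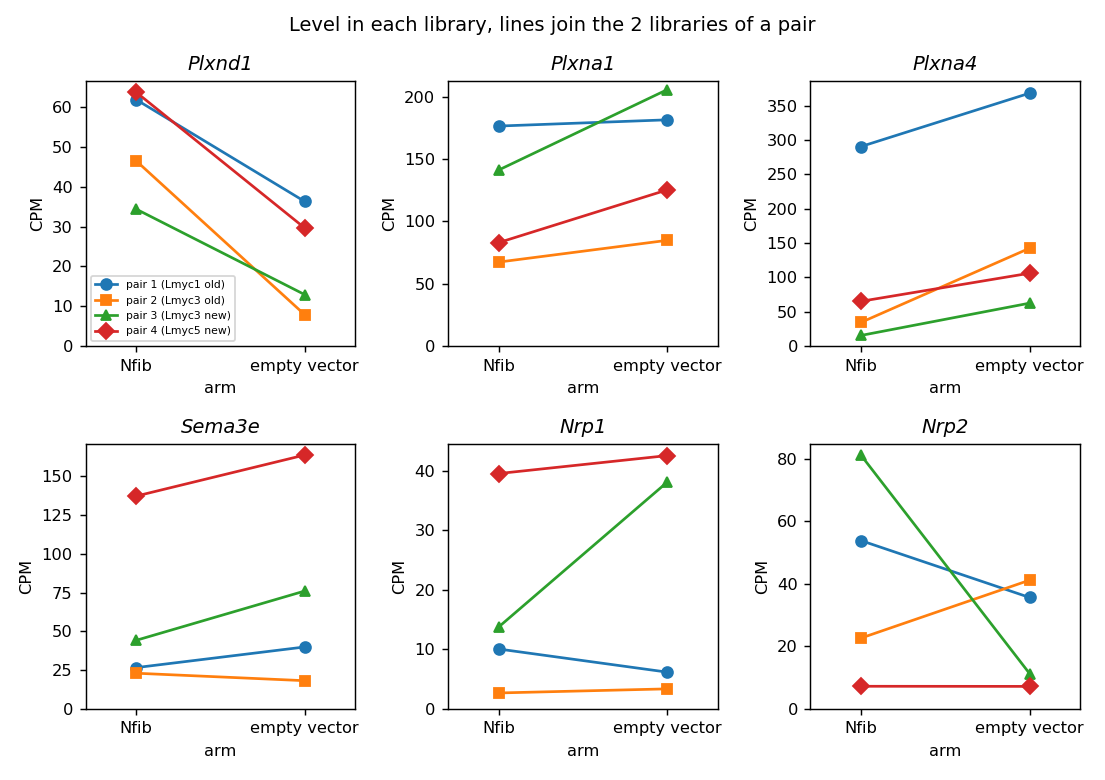
CPM of 6 genes in each library (linear axes that start at 0), Nfib on the left and empty vector on the right of each panel, with lines joining the libraries of a pair. All lines of Plxnd1 run downward towards empty vector and all lines of Plxna4 upward, whereas in pair 3 the Nrp1 line runs upward and the Nrp2 line steeply downward.

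The arms of pair 3 differed in their leading neuropilin. Nrp1, the coreceptor of Sema3a, had 10.1, 2.66, 13.8 and 39.6 CPM in the Nfib libraries, against 6.17, 3.35, 38.1 and 42.6 CPM in the empty vector libraries. Nrp2, the coreceptor of Sema3f, had 53.8, 22.6, 81.1 and 7.21 CPM in the Nfib libraries, against 35.6, 41.2, 11.2 and 7.17 CPM in the empty vector libraries. Per length, Nrp1 made up 18.4%, 12.5%, 17.0% and 86.9% of neuropilin transcripts in the Nfib libraries, against 17.3%, 8.97%, 80.4% and 87.8% in the empty vector libraries. Both arms thus had the same leading neuropilin in pairs 1, 2 and 4, while pair 3 had mostly Nrp2 in its Nfib library, against mostly Nrp1 in its empty vector library. This rests on 1 pair. Over the 4 pairs the log2 fold change was -0.31 ± 0.35 for Nrp1 (SE, paired DESeq2 adjusted p of 0.817) and 0.58 ± 0.70 for Nrp2 (adjusted p of 0.838).

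Of the semaphorins, 3 were higher with Nfib in all 4 pairs and 2 were lower in all 4. With the plexins this made 5 members higher and 4 lower in every pair, 9 of 27, where 25.6% of all tested genes kept 1 sign in all pairs. No member had all Nfib libraries above or below all empty vector libraries (0.516% of all genes did). Sema4c, the ligand of plexin B2, had 21.2, 23.6, 23.9 and 39.8 CPM in the Nfib libraries, against 17.1, 19.8, 20.4 and 26.6 CPM in the empty vector libraries. Sema3f, which repels axons through Nrp2, had 22.3, 14.5, 27.9 and 19.1 CPM in the Nfib libraries, against 18.9, 7.93, 24.0 and 13.9 CPM in the empty vector libraries. Both were higher in every pair by amounts that missed the threshold, with log2 fold changes of 0.34 ± 0.13 for Sema4c (SE, paired DESeq2 adjusted p of 0.123) and 0.43 ± 0.18 for Sema3f (adjusted p of 0.185). Sema4f, a membrane-bound ligand, had 25.6, 10.7, 6.17 and 7.83 CPM in the Nfib libraries, against 32.7, 14.9, 8.49 and 8.70 CPM in the empty vector libraries. Sema6b, a ligand of plexin A4, had 3.40, 11.9, 0.604 and 9.55 CPM in the Nfib libraries, against 4.71, 14.9, 0.704 and 10.5 CPM in the empty vector libraries. Both were lower in every pair, and again neither passed (log2 fold changes of -0.37 ± 0.15 and -0.30 ± 0.22, SE, paired DESeq2 adjusted p of 0.166 and 0.612). The remaining gene of this kind was Sema6c, higher in all pairs at a mean of under 1 CPM. In pair 3 it had 2 counts in each arm, so its sign there came from library scaling only.

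Some ligands differed widely between the arms of some pairs and little in others. Sema3c, which binds both neuropilins, had 7.62, 5.60, 17.5 and 6.51 CPM in the Nfib libraries, against 1.83, 5.67, 2.93 and 8.75 CPM in the empty vector libraries. Its log2 ratios were thus 2.01 and 2.54 in pairs 1 and 3, but -0.02 and -0.42 in pairs 2 and 4 (log2 fold change of 1.03 ± 0.55, SE, paired DESeq2 adjusted p of 0.384). Sema3a had log2 ratios of 2.48, -0.35, 1.08 and 0.12 in pairs 1 to 4. Sema6d, a ligand of plexin A1, had 56.0, 20.2, 6.43 and 39.3 CPM in the Nfib libraries, against 43.7, 49.8, 7.08 and 75.3 CPM in the empty vector libraries (adjusted p of 0.412 by paired DESeq2). Sema3d had 0.610, 1.65, 0 and 1.48 CPM in the Nfib libraries, against 0.0678, 0.708, 0 and 0.135 CPM in the empty vector libraries, and DESeq2 gave it no adjusted p. At 0 counts a library allows up to 0.129 CPM in the Nfib library and 0.111 CPM in the empty vector library of pair 3, a limit that covers counting error only.

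Whether the Nfib effect differed between the new and the old pairs was tested as an interaction in edgeR. It called 0 of the 27 members and 0.0% of all genes, and an unadjusted p under 0.05 was reached by 2 members, Plxna1 and Sema6a, and by 405 genes. A DESeq2 test of the same term called 0 members and 7 genes. Plxna1 had log2 ratios of -0.54 and -0.59 in the new pairs 3 and 4, against -0.04 and -0.33 in the old pairs 1 and 2 (edgeR unadjusted p of 0.0424). Sema6a had no counts in pair 3, so among the new pairs its value rests on pair 4 alone.

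Most members differed between the 4 cultures. An edgeR test of the pair, with Nfib as a covariate, called 23 of the 27 members, 15 semaphorins, 7 plexins and Nrp1, where 76.7% of all tested genes were called. Calls with at least a 2-fold difference between the highest and the lowest culture mean came to 21 members, and 43.9% of all genes. A difference of at least 10-fold, with 3 counts taken as the floor of a culture, was reached by 9 members, 8 semaphorins and Nrp1, and by 14.3% of all genes. No plexin reached it. The tested plexins did not fall below a culture mean of 14.5 CPM (Plxnc1, pair 3). Of the 8 semaphorins, Sema3d and Sema6c had highest culture means of only 1.18 and 2.70 CPM. The libraries of a culture are its Nfib and its empty vector library and not independent cultures, so this test sets the spread between cultures against that within pairs. Not called were Plxnd1, Nrp2, Sema3c and Sema4b (adjusted p of 0.0577, 0.116, 0.553 and 0.164 by edgeR).

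Sema3a, the class 3 ligand that repels axons through Nrp1, was most abundant in pair 2. It had 3.96, 44.9, 0.561 and 0.545 CPM in the Nfib libraries of pairs 1 to 4, against 0.644, 57.3, 0.222 and 0.496 CPM in the empty vector libraries. Pair 2 was thus far above the others in both arms, and its mean of 51.1 CPM was 130.5 times the 0.391 CPM of pair 3 (edgeR adjusted p of 0.000923). Pair 2 was also the lowest culture for several receptors, with means of 76.1 CPM for Plxna1, 90.4 for Plxna2, 22.7 for Plxna3, 84.4 for Plxnb1, 243.3 for Plxnb2 and 3.01 for Nrp1. This was not particular to receptors, since the ligands Sema3b, Sema3e, Sema3f, Sema3g, Sema4b and Sema4d were lowest there too. The receptors Plxna4, Plxnb3, Plxnc1, Plxnd1 and Nrp2 were lowest in other cultures.

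The transmembrane semaphorins of class 6 were lowest in pair 3. Sema6b averaged 4.05, 13.4, 0.654 and 10.02 CPM in the cultures of pairs 1 to 4, a 20.5-fold span (edgeR adjusted p of 0.000191). Sema6d averaged 49.9, 35.0, 6.75 and 57.3 CPM, an 8.49-fold span (edgeR adjusted p of 0.00564). Sema6a, a ligand of plexins A2 and A4, had no counts in pair 3 and a mean of 6.95 CPM in pair 4, at least 116-fold higher against the limit of 3 counts over both libraries of pair 3. By share, class 6 was 12.4%, 15.7%, 2.07% and 13.8% of semaphorin transcripts in the Nfib libraries, against 10.8%, 23.2%, 2.14% and 18.4% in the empty vector libraries.

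Other ligands were high or low in single cultures. Sema5a, a ligand of plexins A1 and A3, averaged 2.098, 7.55, 0.0431 and 7.56 CPM over pairs 1 to 4 (edgeR adjusted p of 0.00249). Sema3e averaged 33.2, 20.5, 60.1 and 150.5 CPM over pairs 1 to 4, Sema5b averaged 0.370, 0.467, 0.654 and 6.58 CPM, and Sema4g averaged 29.4, 3.80, 2.49 and 7.78 CPM. Sema3e and Sema5b were thus highest in Lmyc5 and Sema4g in Lmyc1. Among receptors, Plxna4 averaged 329.4, 88.5, 39.0 and 85.7 CPM, highest in Lmyc1 in both arms, and Plxnc1 averaged 45.8, 32.3, 14.5 and 81.0 CPM. At the other end, Sema4b, Sema4c and Plxnb2 spanned 1.31-fold, 1.73-fold and 1.76-fold.

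Both Lmyc3 cultures carry the name of 1 line, yet 19 of the 27 members differed between them in the edgeR test, where 59.9% of all genes did. Lmyc3 old had more Sema3a (log2 difference, old minus new, of 7.18 ± 0.83, SE, edgeR adjusted p of 0.00108), Sema6b (4.35 ± 0.21, adjusted p of 0.000101), Sema6d (2.29 ± 0.43, adjusted p of 0.0059) and Plxnc1 (1.16 ± 0.08, adjusted p of 0.000253). It had less Nrp1 (-3.05 ± 0.53, adjusted p of 0.00445) and less Plxna2 (-2.14 ± 0.23, adjusted p of 0.000886). Across the 27 genes, the log2 CPM of empty vector libraries correlated at r of 0.719 between the Lmyc3 cultures, and the range over all culture pairs was from 0.652 (pairs 2 and 4) to 0.885 (pairs 1 and 3). Across all 13380 genes r was 0.811 between the Lmyc3 cultures, 0.877 for pairs 2 and 4 and 0.887 for pairs 1 and 3. The lowest value over all genes was 0.81, for pairs 3 and 4. Such correlations are across genes, which are not independent replicates, and the libraries share a protocol.

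Partners of the family were counted from lists of effectors, coreceptors, other neuropilin ligands and processing enzymes. Of 35 tested effectors, 1 rose and 2 fell in the paired DESeq2 test, where 1.86% of all tested genes rose and 2.2% fell. The effectors had a median log2 fold change of -0.07. Dpysl3, of the collapsin response mediator proteins that relay class 3 signals, rose by 0.70 ± 0.16 (SE, adjusted p of 0.000741). Its relative Crmp1 fell by 0.27 ± 0.06 (adjusted p of 0.000774 in paired DESeq2), and Mical1, an oxidase that takes actin filaments apart below plexins, fell by 0.56 ± 0.15 (adjusted p of 0.00609). All 3 kept their direction in every pair, but when pairs were left out in turn Dpysl3 passed in 3, Crmp1 in 2 and Mical1 in 0 of 4 fits. The GTPases and regulators Rac1, Rhoa, Arhgef11 and Arhgef12 did not pass.

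The other lists, of 5 to 8 tested genes, are too short to be set against the shares of all genes that rose (1.86%) or fell (2.2%). Of 8 tested coreceptors, 1 rose, the integrin subunit Itga1, whose complex with integrin beta 1 is a receptor of Sema7a. It had 0.697, 5.10, 0.431 and 8.38 CPM in the Nfib libraries, against 0, 0.991, 0 and 1.04 CPM in the empty vector libraries (paired DESeq2 adjusted p of 0.000311). Of 6 tested other ligands of neuropilins, 1 fell, the placental growth factor Pgf. It had 42.1, 1.88, 41.1 and 10.3 CPM in the Nfib libraries, against 61.4, 4.44, 85.5 and 23.5 CPM in the empty vector libraries, and fell by 0.99 ± 0.17 on the log2 scale (SE, paired DESeq2 adjusted p of 3.11e-06). Of 5 tested processing enzymes, 1 rose, Pcsk6, of the proprotein convertases, the protease family that cleaves class 3 semaphorins. It had 20.98, 59.1, 35.4 and 119.8 CPM in the Nfib libraries, against 3.29, 14.5, 11.3 and 39.3 CPM in the empty vector libraries, a log2 fold change of 1.96 ± 0.21 (SE, paired DESeq2 adjusted p of 4.65e-18). Itga1, Pgf and Pcsk6 passed whichever pair was left out. The medians of these lists were 0.45, -0.18 and 0.02 on the log2 scale, against -0.006 over all genes.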

How the data were processed

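The authors deposited raw read counts per gene, whole numbers that were not normalized, for 4 Nfib and 4 empty vector libraries prepared with the TruSeq RNA kit of Illumina, per the labels' protocols. Per the submitters' processing notes, the build was GRCm38 (mm10) and the tools were Bowtie 1.0.0, TopHat2 2.1, DESeq2 and SAMtools 0.1.19. How reads were counted, on which strand and with which annotation release is not given in the sources used here, so overlapping genes on opposite strands cannot be told apart. The titles call the Nfib arm Tumor, and groups were taken from the source field, which names the vector. A further allele in the genotype label is not reported here.

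The members, lists and tests were chosen with earlier results of these data known. edgeR 4.0.16 (quasi-likelihood test, original form of the fit, R 4.3.3) compared Nfib with empty vector, unblocked, after TMM scaling. The filterByExpr filter by group left 13380 genes, and Benjamini-Hochberg adjusted p-values over all of them were read at 0.05. DESeq2 1.42.0 (Wald test, unshrunken fold changes) with the pair as a block is the test behind "rose" and "fell". Only the edgeR fits with and without the block, the paired DESeq2 fit and the edgeR culture and interaction tests were tried on simulated data. There the paired DESeq2 fit, and to a smaller degree the paired edgeR fit, called more unchanged genes than the threshold allows, and edgeR without the block recovered fewer changed genes than either. The labels name the same line for the Nfib and empty vector library of each number, which makes the pairs. This was checked on deviations from the group means, which correlated at r of 0.908, 0.884, 0.935 and 0.929 within pairs and at most 0.065 otherwise. CPM used TMM-scaled totals, within-pair log2 ratios a prior count of 2, and per-length levels the exon union of GENCODE M21 (all 31 members matched).

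Members were described in full where they passed the paired DESeq2 test, or had a mean of at least 1 CPM and 1 sign in all 4 pairs, and genes of lists were named where they passed. Other members were chosen after their values were seen. Alternatives were limma 3.58.1 (voom), other scalings, no filter, left-out pairs, summed Lmyc3 cultures and coding length.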

Additional observations from a re-analysis of the deposited data

Results flagged for a closer look

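In groups of 4 libraries, the highest or lowest log2 CPM was checked for a gap to its neighbour that exceeds Dixon's critical share of the group's range. Over 81 groups checked, chance alone would mark about 5%, and 2 were marked. For Sema3a in the empty vector libraries the gap was 0.834 of the range, with pair 2 at 57.3 CPM and the others at 0.222 to 0.644 CPM. For Sema5b in the empty vector libraries it was also 0.834, with pair 4 at 8.57 CPM and the others at 0.305 to 0.567 CPM. The Nfib libraries of the same pairs were the highest too, at 44.9 CPM for Sema3a and 4.60 CPM for Sema5b.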

How the results depend on the processing

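The count of members passing the paired DESeq2 test was 2, and it was 0 without the block, 0 in edgeR with the replicate block, 1 with total-count scaling and the block, and between 1 and 3 when a pair was left out. The pairs whose omission gave 1 were 3 and 4, where Plxna1 no longer passed. The count was 2 without pair 2 and 2 with the Lmyc3 cultures summed, but in both the members were Plxnd1 and Sema3e, and Plxna1 did not pass. It was 2 without the low-count filter and 3 at an adjusted p under 0.1. Plxnd1 had an estimate of 1.43 in edgeR with the replicate block and 1.25 in DESeq2 without the block, and passed in neither. The cause of these differences was not tested. The edgeR count without a block stayed at 0 under all alternatives run (limma voom with the block called 3 genes overall and the bias-adjusted edgeR fit 44, no member among them), as did the interaction count. Between cultures the count of 23 became 24 with the DESeq2 likelihood ratio test, 23 with total counts and 27 without the filter. Total-count scaling moved the median log2 fold change by 0.035. The share of plexin A was 37.8% by exon length and 48.3% by coding length. With coding length the share of class 3 semaphorins was 41.5% in place of 36.0%, and that of Nrp1 38.9% in place of 41.2%. With 4 pairs from 3 lines, and genes such as Sema3d near the limit of counting, small differences can go undetected.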

Other observations

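Kdr, the VEGF receptor that joins neuropilins and also an endothelial marker, lay below the low-count filter and was singled out after its values were seen. It had 0, 125, 150 and 4 counts in the Nfib libraries of pairs 1 to 4, against 0, 2, 1 and 0 counts in the empty vector libraries. In pairs 2 and 3, the Lmyc3 cultures, this was 5.74 and 6.47 CPM in the Nfib libraries, against 0.0944 and 0.0371 CPM in the empty vector libraries. Without the filter the paired DESeq2 test gave it an adjusted p of 0.000191. Of the other VEGF receptors listed, Flt1 had at most 2 counts in Nfib libraries and at most 5 in empty vector libraries, and Flt4 had at most 10 in Nfib libraries and at most 15 in empty vector libraries. The rest of the endothelial list is given with Plxnd1, and its part in the Kdr values was not tested.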
